A study of Homo sapiens with 12 samples.

Results

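Interferon-stimulated genes and RNA sensors were followed across 4 treatments of spheroids of SBC3, an established human line of small cell lung cancer. The 9 genes were chosen by symbol, with earlier results of these data known: ISG15, IFI6, IFIT1, IFIT2, IFIT3, IRF9, IRF7, RIGI and IFIH1. All 9 were found among the 60649 genes of the count tables. Messenger RNA was sequenced in 12 libraries, 3 each from untreated control spheroids, spheroids given teriflunomide, spheroids given lurbinectedin, and spheroids given both drugs, called the combination here. Teriflunomide inhibits DHODH, an enzyme of pyrimidine synthesis, and lurbinectedin binds DNA and blocks transcription. The labels give no dose, no exposure time and no statement that replicates came from separate cultures, so p-values measure only the spread between these samples, which may be technical. All groups share this 1 line.

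Library totals ran from 23206414 to 33222162 counts. Mitochondrially encoded genes took 6.26% to 17.0% of the counts in 10 libraries, 22.6% in teriflunomide replicate 3 and 24.9% in combination replicate 2. Teriflunomide replicate 3 also stood apart on the second principal component, at 65.6 against -24.0 to 25.8 in the other 11 libraries. Test results that rest on it are therefore given with and without it, whereas correlations were computed only with it. Of 11 markers written for small cell lung cancer, the neuroendocrine regulator INSM1 had 0 counts in every library, and NCAM1 and EPCAM had 0 to 2, whereas in control YAP1 stood at 246 ± 11.96 CPM (normalised read count, SD, n = 3), KRT8 at 243 ± 8.03 CPM, SYP at 16.8 ± 0.765 CPM and NEUROD1 at 4.03 ± 0.317 CPM. With INSM1, NCAM1 and EPCAM at or near 0, the cells are called here by the name of the line.

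Type I interferons are secreted proteins that signal through paired receptors, JAK kinases and a transcription factor complex that holds STAT2 and IRF9. That complex binds the interferon-stimulated response element, or ISRE, in the promoters of interferon-stimulated genes. RIGI and IFIH1 (MDA5) are helicases that detect double-stranded RNA in the cytosol and signal through MAVS towards IRF3 and IRF7, which switch on interferon genes. ISG15 is a ubiquitin-like modifier, IFI6 a small membrane protein with antiviral and survival roles, and IFIT1, IFIT2 and IFIT3 are tetratricopeptide-repeat proteins that act on foreign RNA. Many of these genes also respond to DNA damage or to IRF3 with no secreted interferon.

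The promoters of 4 of the genes are shown because the same response element stands upstream of genes that changed in opposite directions with lurbinectedin. RefSeq promoters on GRCh38.p14 were matched for 7 of the 9 genes in 8 windows, since IFIT3 has a pair of start sites; IFIT2 and IRF7 had no entry. Each sequence below is the 250 bases before the annotated start, 5′ to 3′ on the strand of the gene, with every match to the ISRE core (TTTC, any 2 bases, TTTC) on either strand in capitals.
ISG15: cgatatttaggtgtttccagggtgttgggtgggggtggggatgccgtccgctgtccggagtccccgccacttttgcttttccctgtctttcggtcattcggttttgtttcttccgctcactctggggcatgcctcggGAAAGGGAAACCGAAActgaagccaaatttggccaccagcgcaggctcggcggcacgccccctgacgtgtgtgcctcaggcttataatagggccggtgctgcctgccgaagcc
IFI6: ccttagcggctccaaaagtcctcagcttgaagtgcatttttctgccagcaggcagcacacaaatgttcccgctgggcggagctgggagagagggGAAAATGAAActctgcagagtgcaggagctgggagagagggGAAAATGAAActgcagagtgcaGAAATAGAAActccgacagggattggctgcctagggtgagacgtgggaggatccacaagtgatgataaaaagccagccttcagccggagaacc
IFIT1: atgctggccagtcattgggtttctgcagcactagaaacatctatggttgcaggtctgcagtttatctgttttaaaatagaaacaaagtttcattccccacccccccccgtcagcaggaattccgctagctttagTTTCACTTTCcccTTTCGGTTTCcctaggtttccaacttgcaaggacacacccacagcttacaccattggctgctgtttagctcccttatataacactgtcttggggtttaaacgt
IFIT3: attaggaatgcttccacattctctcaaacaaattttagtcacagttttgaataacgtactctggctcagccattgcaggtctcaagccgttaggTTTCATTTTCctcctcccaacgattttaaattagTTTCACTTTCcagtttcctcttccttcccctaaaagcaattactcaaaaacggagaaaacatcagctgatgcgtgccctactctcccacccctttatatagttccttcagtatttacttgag
These windows lie at chr1:1013247-1013496 on the plus strand for ISG15, chr1:27672193-27672442 on the minus strand for IFI6, chr10:89392373-89392622 on the plus strand for IFIT1 and chr10:89327747-89327996 on the plus strand for IFIT3. ISG15 carried 2 overlapping matches and IFI6 3 matches, all read on the opposite strand. IFIT1 and this IFIT3 window carried 2 matches each on the strand of the gene, the second IFIT3 window carried 2, and IFIH1 carried 3. No match lay in the windows of IRF9 and RIGI. The only match to the gamma-activated site core TTCNNNGAA was in IRF9, at bases -63 to -55 from the start. Across all 35116 RefSeq promoters, from 250 bases before to 50 after the start, 3.57% held the ISRE core and 7.66% the gamma-activated site core; in the 250 bases before the start alone, the shares were 3.02% and 6.57%. A match describes letters in the window and is not a measured binding site.

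**Figure D1:**
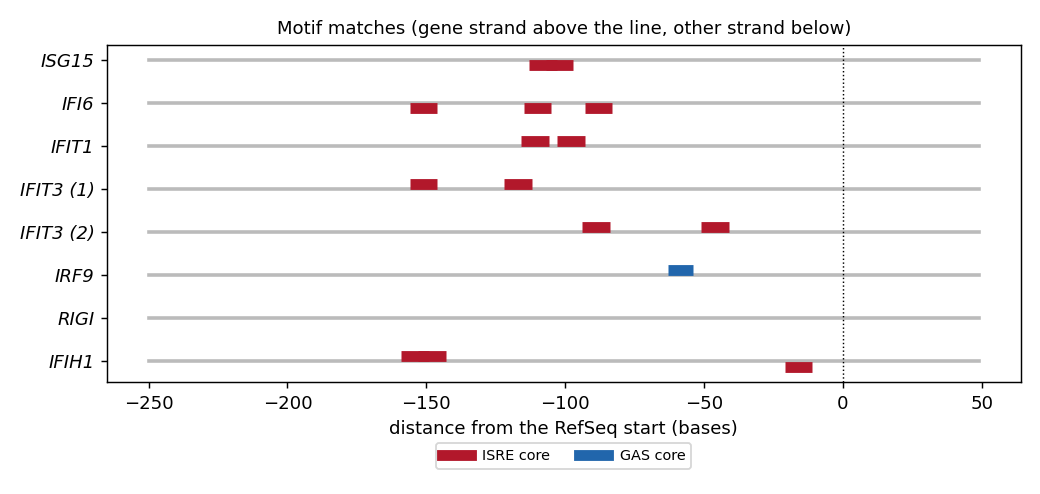
Positions of motif matches in the 8 RefSeq promoter windows, by distance in bases from the annotated start; blocks above a line are on the strand of the gene, blocks below it on the other strand. The ISRE core (red) appears in 6 windows, belonging to ISG15, IFI6, IFIT1, IFIT3 and IFIH1, and the gamma-activated site core (blue) in IRF9.

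Lurbinectedin, with or without teriflunomide, raised IRF7, IFI6 and IFIT2 and lowered IFIT1. IFIT3 was called higher in all 3 comparisons with control, and was the only gene called with teriflunomide alone. ISG15 was called higher with lurbinectedin alone. Levels are in CPM, the normalised read count after TMM scaling of the library totals. CPM is a share of the RNA sequenced, so a rise or fall is relative to other genes and does not give RNA per cell. Changes were tested with edgeR's quasi-likelihood test over 16683 genes; calls needed a p under 0.05 after Benjamini-Hochberg adjustment. RIGI did not pass the expression filter, leaving 8 genes with a test. With teriflunomide, 1 of 8 was called, higher, beside 6.01% of all genes called, 3.88% higher and 2.13% lower. With lurbinectedin, 5 were higher and 1 lower, beside 71.6% of all genes called, 36% higher and 35.7% lower; 6 calls among 8 genes is close to that background. With the combination, 5 were higher and 1 lower, beside 68.4% of all genes called, 34.1% higher and 34.4% lower, again close to the background. Groups did not overlap for 5 higher genes and 1 lower with lurbinectedin, beside 42.4% and 40.8% of all genes, and for 6 higher and 1 lower with the combination, beside 38.7% and 38.5%. The 3 comparisons share the same control libraries. The median log2 fold change of the 8 genes was 0.32, 0.43 and 0.61 in the order teriflunomide, lurbinectedin and combination, and that of all genes was 0.03, 0.05 and 0.04.

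**Figure D2:**
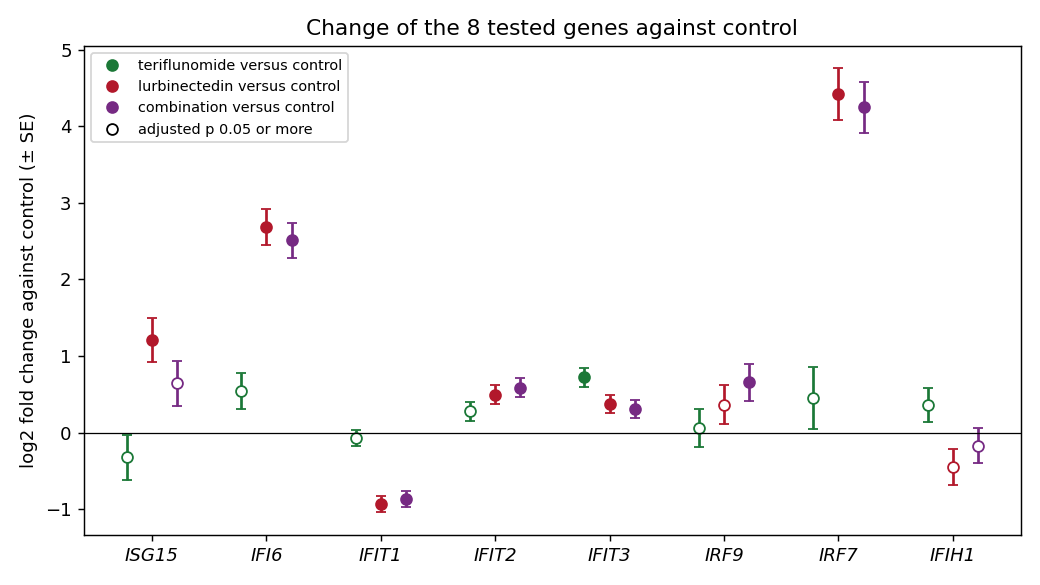
Log2 fold change against control (± SE) of the 8 tested genes, for each treatment; filled points have an adjusted p under 0.05. IRF7 and IFI6 lie highest with both lurbinectedin treatments (4.42 and 2.68 with lurbinectedin alone), IFIT1 is the only called gene below 0, and IFIT3 is the only gene filled with teriflunomide.

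Of the small effector genes, both ISG15 and IFI6 rose with lurbinectedin. IFI6 (ENSG00000126709.16, chromosome 1, 27666064 to 27672212, minus strand, GRCh38) stood at 1.94, 2.31 and 2.42 CPM in the control libraries and at 14.2, 13.1 and 15.5 CPM with lurbinectedin. With the combination it stood at 10.8, 13.2 and 14.0 CPM, and with teriflunomide at 3.96, 3.83 and 1.87 CPM. Every library given lurbinectedin lay above every library without it, and the teriflunomide range overlapped the control range through replicate 3. Lurbinectedin raised IFI6 by 2.68 on the log2 scale (SE 0.232, edgeR adjusted p = 1.64e-07), a 6.41-fold rise with a 95% interval of 4.42 to 9.29. For the combination the value was 2.51 (SE 0.231, edgeR adjusted p = 3.80e-07). A noncoding gene on the same strand, LINC02574, shares 23.1% of the exon bases of IFI6, and had 0 to 5 counts in every library.

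ISG15 (ENSG00000187608.10, chromosome 1, 1001138 to 1014540, plus strand) was measured at 4.39, 3.78 and 3.88 CPM in control and at 9.93, 8.76 and 9.12 CPM with lurbinectedin. The combination gave 6.44, 4.51 and 7.75 CPM, and teriflunomide 4.31, 3.77 and 1.47 CPM. The lurbinectedin libraries were the highest, the combination libraries lay between these and control with no overlap on either side, and teriflunomide replicate 3 was the lowest of all 12. ISG15 rose by 1.20 on the log2 scale with lurbinectedin (SE 0.286, edgeR adjusted p = 0.00179), or 2.31-fold with a 95% interval of 1.46 to 3.64. Its difference of 0.64 under the combination missed the threshold (SE 0.288, edgeR adjusted p = 0.0619). Without combination replicate 2, the lowest of its group and a library of high mitochondrial share, it was 0.82 and was called (edgeR adjusted p = 0.0332). Across the 15 alternatives the combination value ran from 0.45 to 0.82. It stayed uncalled in 11 of them and was called in the rest.

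**Figure D3:**
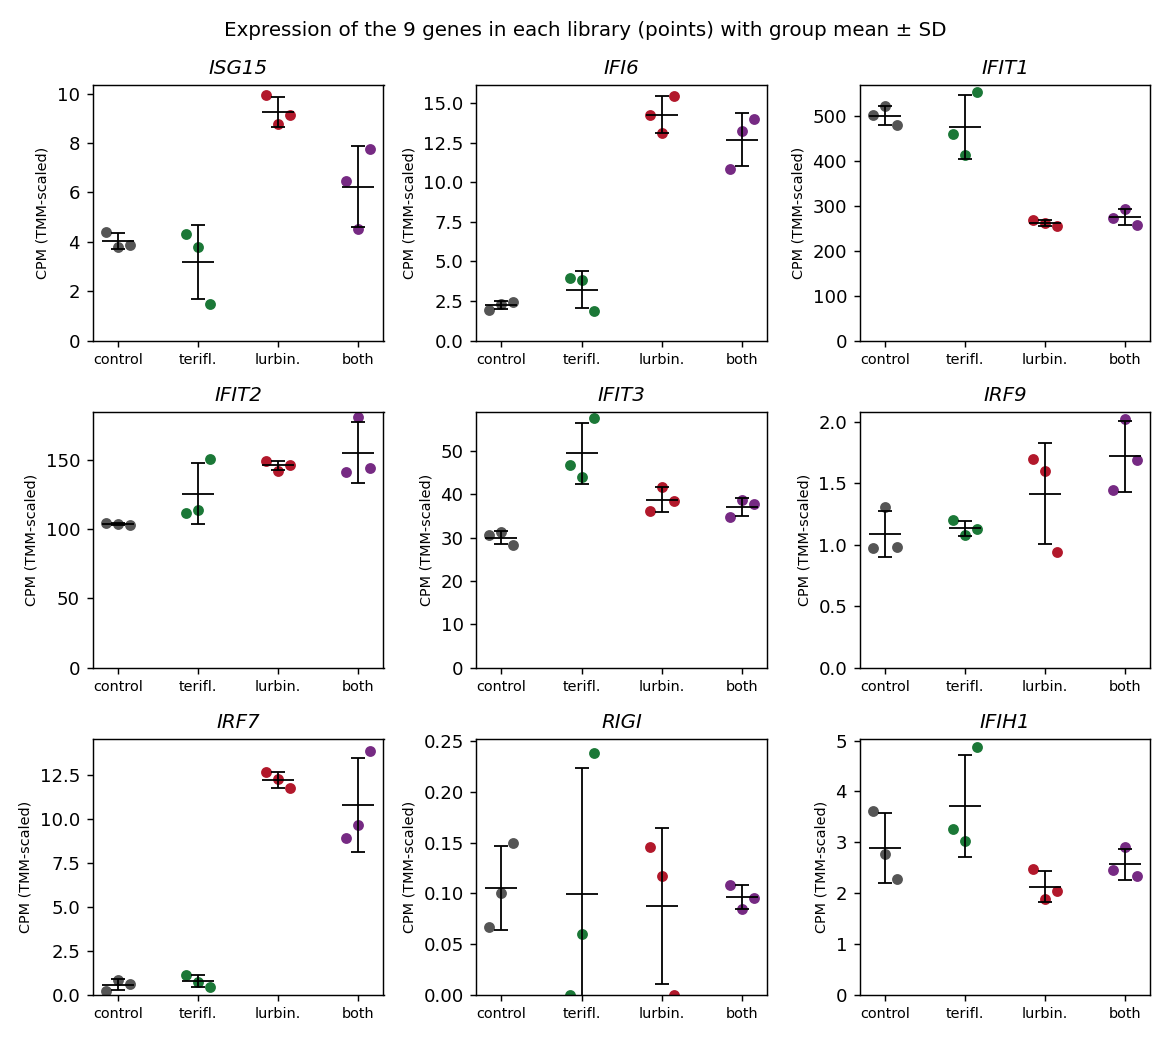
CPM of each of the 9 genes in each of the 12 libraries (points; lurbin., lurbinectedin; terifl., teriflunomide; both, the combination), with the group mean ± SD (n = 3) as bars; each panel has its own vertical axis from 0. Lurbinectedin libraries of IRF7 (11.8 to 12.7 CPM) and IFI6 (13.1 to 15.5 CPM) lie far above control, those of IFIT1 (255 to 269 CPM) lie below, and RIGI stays under 0.25 CPM throughout.

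The 3 IFIT genes sit side by side on chromosome 10 and moved apart with lurbinectedin: IFIT1 fell while IFIT2 and IFIT3 rose. IFIT1 (ENSG00000185745.10, 89392546 to 89406487, plus strand), which binds the 5′ end of RNA lacking the host cap methylation, had 501, 521 and 480 CPM in control. It had 269, 261 and 255 CPM with lurbinectedin and 274, 294 and 257 CPM with the combination. Each of these 6 libraries lay below every control library and below the teriflunomide libraries, at 459, 413 and 554 CPM. Lurbinectedin gave a log2 fold change of -0.94 (SE 0.107) at an edgeR adjusted p of 2.77e-06, and the combination -0.87 (SE 0.107) at an edgeR adjusted p of 6.93e-06. In bulk RNA, fewer cells that express a gene and less of its RNA per cell cannot be told apart.

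IFIT2 (ENSG00000119922.11, chromosome 10, 89283694 to 89309271, plus strand), known for roles in translation control and apoptosis, had 104, 104 and 103 CPM in control. It reached 149, 142 and 147 CPM with lurbinectedin and 141, 181 and 144 CPM with the combination. Teriflunomide libraries were at 112, 114 and 151 CPM, so every treated library exceeded every control library. IFIT2 rose by 0.50 on the log2 scale under lurbinectedin (SE 0.126, edgeR adjusted p = 0.00288) and by 0.58 under the combination (SE 0.126, edgeR adjusted p = 0.000949). Both calls held in all 15 alternatives, where the values went as low as 0.26 and 0.40. Its teriflunomide value of 0.28 missed the threshold (SE 0.126, edgeR adjusted p = 0.189).

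IFIT3 (ENSG00000119917.15, chromosome 10, 89327307 to 89377473, plus strand), a partner that stabilises IFIT1 on RNA, was the only one of the 8 called in all 3 comparisons with control. It had 30.5, 31.3 and 28.2 CPM in control and 46.8, 44.1 and 57.5 CPM with teriflunomide. Lurbinectedin gave 36.1, 41.8 and 38.4 CPM and the combination 34.8, 38.6 and 37.7 CPM. The teriflunomide libraries were the 3 highest, the libraries given lurbinectedin came next and overlapped each other, and control was the lowest. The rise with teriflunomide was 0.72 on the log2 scale (SE 0.119, edgeR adjusted p = 0.00443), against 0.37 with lurbinectedin (SE 0.119, edgeR adjusted p = 0.0128) and 0.30 for both drugs together (SE 0.119, edgeR adjusted p = 0.0357). The last 2 calls were lost with library size as the only scaling, where the log2 fold changes were 0.14 and 0.13. The lurbinectedin call also ended without control replicate 3 (0.32, edgeR adjusted p = 0.0611) or lurbinectedin replicate 2 (0.30, edgeR adjusted p = 0.0625), and the combination call without any 1 control library or combination replicate 2 or 3 (0.25 to 0.33, edgeR adjusted p = 0.0605 to 0.134).

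The shift among IFIT1, IFIT2 and IFIT3 was seen in every library as a ratio. IFIT1 over IFIT2, in CPM, was 4.80, 5.03 and 4.67 in control and 4.11, 3.62 and 3.67 after teriflunomide. It was 1.80, 1.83 and 1.74 after lurbinectedin and 1.94, 1.63 and 1.78 after both drugs. IFIT1 over IFIT3 had group means of 16.7 ± 0.278, 9.61 ± 0.214, 6.78 ± 0.602 and 7.43 ± 0.557 (SD, n = 3) in the same order. In both ratios control was highest, teriflunomide next and the lurbinectedin treatments lowest, with no overlap between these 3 levels. IFIT1 supplied 78.9% ± 0.460 of the summed CPM of the 3 genes in control and 58.6% ± 0.590 with lurbinectedin. IFIT2 over IFIT3 was lowest with teriflunomide, at 2.53 ± 0.129 against 3.46 ± 0.168 in control. These ratios compare genes within a library and do not depend on library scaling.

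**Figure D4:**
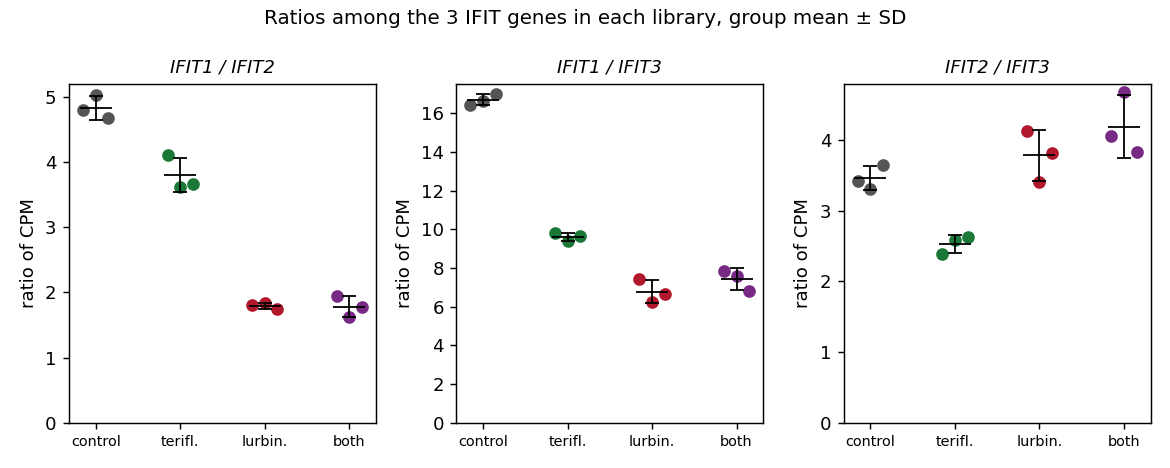
Ratios of CPM among IFIT1, IFIT2 and IFIT3 in each library (points), with the group mean ± SD (n = 3); both, the combination. IFIT1 over IFIT2 falls from 4.67 to 5.03 in control to between 1.63 and 1.94 in the 6 libraries given lurbinectedin, and IFIT2 over IFIT3 is lowest in the 3 teriflunomide libraries.

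Neighbouring transcripts bear on how the IFIT counts are read, since the use of strand and the treatment of reads that overlap several genes are not given in the sources used here. LIPA, a lysosomal lipase gene on the opposite strand, spans the cluster and stood at 2508 ± 80.2 CPM in control and 956 ± 47.0 CPM with lurbinectedin (log2 fold change -1.39, SE 0.120, edgeR adjusted p = 1.53e-07). It shares 0 exon bases with IFIT1, 1.503% of those of IFIT2 and 1.86% of those of IFIT3. ENSG00000232110, on the same strand as IFIT2, shares 12.1% of the exon bases of IFIT2 and stood at 56.1 ± 4.55 CPM in control and 38.3 ± 5.53 CPM with lurbinectedin. The part of shared reads in the IFIT values was not tested.

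Of the transcription factors, IRF7 had the largest change of the 8 tested genes and IRF9 a small one. IRF7 (ENSG00000185507.21, chromosome 11, 612553 to 615983, minus strand), the factor that amplifies interferon gene transcription, had 7, 26 and 20 counts in the control libraries, or 0.235, 0.869 and 0.597 CPM. It stood at 12.7, 12.3 and 11.8 CPM under lurbinectedin and at 8.94, 9.65 and 13.9 CPM under both drugs. Teriflunomide libraries held 1.11, 0.749 and 0.443 CPM. The 6 libraries given lurbinectedin lay apart from the other 6, which overlapped one another. IRF7 rose by 4.42 on the log2 scale under lurbinectedin (SE 0.336, edgeR adjusted p = 4.26e-08), a 21.4-fold rise with a 95% interval of 12.5 to 36.6. Under the combination the rise was 4.24 (SE 0.335, edgeR adjusted p = 7.96e-08). Control counts were few, and leaving out 1 library at a time moved the lurbinectedin value between 4.06 and 4.84.

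IRF9 (ENSG00000213928.9, chromosome 14, 24161265 to 24166565, plus strand), the DNA-binding partner of STAT2, had 26 to 53 counts in a library. Its levels were 0.972, 1.30 and 0.986 CPM in control and 1.20, 1.08 and 1.12 CPM under teriflunomide. They were 1.70, 1.60 and 0.945 CPM under lurbinectedin and 1.45, 2.02 and 1.69 CPM under both drugs. Combination libraries exceeded all control libraries, whereas lurbinectedin replicate 3 was below them. The combination raised IRF9 by 0.66 on the log2 scale (SE 0.241, edgeR adjusted p = 0.0261), and the lurbinectedin value of 0.37 missed the threshold (SE 0.249, edgeR adjusted p = 0.201). The combination call ended in 9 of 15 alternatives, among them leaving out control replicate 1 or 3 or combination replicate 2 or 3 (0.53 to 0.67, edgeR adjusted p = 0.0503 to 0.0973). Without lurbinectedin replicate 3, the lurbinectedin value was 0.59 and was called (edgeR adjusted p = 0.0435). ENSG00000259529, on the same strand, shares 42.2% of the exon bases of IRF9 and had 5 to 39 counts per library, so IRF9 values are uncertain where reads could be split.

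The RNA sensors were at low levels: RIGI had too few counts to test, and edgeR did not call IFIH1 against control. RIGI (ENSG00000107201.11, chromosome 9, 32455302 to 32526208, minus strand) had 2, 3 and 5 counts in control, 0, 2 and 7 under teriflunomide, 3, 3 and 0 under lurbinectedin and 3, 2 and 3 under both drugs. Control summed to 10 counts (95% exact Poisson interval 4.80 to 18.4), teriflunomide to 9 (4.12 to 17.1), lurbinectedin to 6 (2.20 to 13.1) and both drugs to 8 (3.45 to 15.8), intervals that cover counting error only. The groups overlapped fully, and a difference in RIGI was not detectable at this depth. ENSG00000288684, on the same strand, shares 43.2% of the exon bases of RIGI and had 0 to 6 counts.

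IFIH1 (ENSG00000115267.9, chromosome 2, 162267074 to 162318684, minus strand) was measured at 3.62, 2.77 and 2.27 CPM in control and 2.47, 1.88 and 2.04 CPM with lurbinectedin. It had 3.25, 3.02 and 4.87 CPM with teriflunomide and 2.46, 2.91 and 2.33 CPM with the combination. All 3 treated groups overlapped control, and teriflunomide replicate 3 was the highest library. Lurbinectedin gave a log2 difference of -0.44 (SE 0.234; edgeR adjusted p = 0.103), teriflunomide 0.36 (SE 0.219; edgeR adjusted p = 0.321) and both drugs -0.17 (SE 0.228; edgeR adjusted p = 0.517). With library size as the only scaling the lurbinectedin value was -0.68 and was called (edgeR adjusted p = 0.0103), as was the value of -0.60 without control replicate 3 (edgeR adjusted p = 0.0498). It was also called with only the groups compared in the fit (-0.47, edgeR adjusted p = 0.0195) and without both libraries of high mitochondrial share (-0.46, edgeR adjusted p = 0.0294).

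Teriflunomide alone gave 1 call among the 8 tested genes, the rise of IFIT3. Without replicate 3, IFI6 was also called, with a log2 fold change of 0.80 (edgeR adjusted p = 0.00642) in place of 0.54 (SE 0.239, edgeR adjusted p = 0.180) with it. That library was the highest of its group in IFIT1, IFIT2, IFIT3 and IFIH1 and the lowest in ISG15, IFI6 and IRF7. The part of its mitochondrial share in these values was not tested. Groups did not overlap for 2 genes, IFIT2 and IFIT3, both higher, beside 20.1% of all genes separated higher and 16.7% separated lower. The 95% intervals of the log2 fold change spanned -1.01 to 0.36 for ISG15, -0.01 to 1.09 for IFI6, -0.32 to 0.17 for IFIT1 and -0.49 to 1.39 for IRF7.

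Adding teriflunomide to lurbinectedin gave no called gene by edgeR, among these 8 or among all 16683 (0% called), with 2599 genes at an unadjusted p under 0.05. None of the 8 had an unadjusted p under 0.05, and DESeq2 called 0 of them. ISG15 showed the widest difference, 9.27 ± 0.602 CPM with lurbinectedin and 6.24 ± 1.63 CPM with the combination, with no overlap between the groups (log2 difference -0.56, SE 0.280, edgeR adjusted p = 0.347). Of all genes, 12.6% were separated lower and 11.1% higher in this comparison. Leaving out teriflunomide replicate 3 and combination replicate 2 together, an alternative chosen after seeing the data, gave ISG15 a log2 fold change of -0.38 that was called (edgeR adjusted p = 0.0429). For IFI6, IFIT1 and IRF7 the 95% intervals of the log2 difference were -0.65 to 0.31, -0.18 to 0.31 and -0.77 to 0.41.

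Against teriflunomide alone, the combination placed 5 genes higher and 3 lower, beside 70.9% of all genes called, 35.2% higher and 35.8% lower. The higher genes were IRF7 (log2 fold change 3.79), IFI6 (1.97), ISG15 (0.97), IRF9 (0.59) and IFIT2 (0.31), and the lower genes IFIT1 (-0.79), IFIH1 (-0.53) and IFIT3 (-0.42). The edgeR adjusted p of IFIT2, IRF9 and IFIH1 lay at 0.0412, 0.0385 and 0.0457, and DESeq2 called none of these 3. Their calls also ended when 1 library was left out: for IFIT2, teriflunomide replicate 1 or 2 or combination replicate 2 (edgeR adjusted p = 0.159 to 0.166), and for IFIH1, teriflunomide replicate 3 or combination replicate 1 or 3 (edgeR adjusted p = 0.107 to 0.181). For IRF9 it was any teriflunomide library or combination replicate 2 or 3 (edgeR adjusted p = 0.0606 to 0.126). IFIT3 was lower in every combination library than in every teriflunomide library. Groups did not overlap for 4 higher genes and 3 lower, beside 35.1% and 35.6% of all genes.

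The interaction asks whether teriflunomide acted differently once lurbinectedin was given (its effect with lurbinectedin minus that without), and was largest for IFIT3. Its value was -0.79 on the log2 scale (SE 0.168, unadjusted p = 0.000378, edgeR adjusted p = 0.0901), from a rise of 0.72 without lurbinectedin and a difference of -0.07 with it. By edgeR 0 of 8 genes were called, beside 0.258% of all genes, 0.036% higher and 0.222% lower; IFIT3 and IFI6 (-0.71, SE 0.316, edgeR adjusted p = 0.456) had an unadjusted p under 0.05. DESeq2 called IFIT3 (-0.76, DESeq2 adjusted p = 0.00122). Without teriflunomide replicate 3, edgeR called both IFIT3 (-0.66, adjusted p = 0.0115) and IFI6 (-0.97, adjusted p = 0.0182).

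Levels were ranked between genes per kilobase of the exon length given with the counts. That length need not be the length of the transcripts expressed. Exon bases shared with other genes, as in IRF9 and RIGI, make the order less certain. In control the order was IFIT1 at 109 ± 4.52 CPM per kb (SD, n = 3), IFIT2 at 24.0 ± 0.1999, IFIT3 at 5.92 ± 0.316, ISG15 at 4.63 ± 0.378, IFI6 at 2.38 ± 0.266, IFIH1 at 0.567 ± 0.134, IRF9 at 0.304 ± 0.0524, IRF7 at 0.217 ± 0.122 and RIGI at 0.0102 ± 0.00400. Only IRF9 and IRF7 among these neighbours had overlapping ranges. With lurbinectedin IFIT1 was still first, at 56.8 ± 1.47 CPM per kb, and IFIT2 second, at 33.8 ± 0.809, but IFI6 (15.3 ± 1.25) and ISG15 (10.7 ± 0.694) then stood above IFIT3 (7.65 ± 0.557). IRF7 moved from eighth place to sixth, at 4.69 ± 0.177 CPM per kb, and IFIH1 and IRF9 overlapped.

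Upstream of these genes, interferons themselves were not detected. Of 21 interferon genes, 19 had no count in any library, and IFNA5 and IFNA8 had 1 count each. For a gene at the same level in every library, 0 counts over the 12 libraries allow up to 0.00866 CPM. The limit within a single treatment group is higher. The receptors and JAK-STAT genes were all expressed. With lurbinectedin 5 of 11 rose and 3 fell, among them the kinase genes JAK2 (log2 fold change -3.45) and JAK1 (-1.95) and the higher TYK2 (1.09) and STAT2 (0.93). With the combination 5 rose and 2 fell. The calls stand beside 71.6% of all genes called with lurbinectedin and 68.4% with the combination, so these shares are near the background. The list medians were 0.31 with teriflunomide, 0.25 with lurbinectedin and 0.33 for both drugs. With library size as the only scaling, the medians with lurbinectedin and both drugs were 0.01 and 0.19, and 3 rose and 3 fell with both drugs.

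Of 14 nucleic acid sensing genes and adaptors, 11 were tested: 6 rose and 4 fell with lurbinectedin, beside 36% of all genes higher and 35.7% lower, and 6 rose and 3 fell with the combination, beside 34.1% and 34.4%. ZNFX1, a helicase that binds viral RNA, rose from 44.0 ± 3.25 to 218 ± 18.5 CPM (log2 fold change 2.31, SE 0.120, edgeR adjusted p = 1.13e-09). DHX58, the relative of RIGI and IFIH1 called LGP2, rose from 0.0745 ± 0.0360 to 1.06 ± 0.241 CPM on few counts, 0 to 34 per library. The adaptor gene TRAF3 fell from 104 ± 1.28 to 33.0 ± 2.19 CPM, and TICAM1, the adaptor of TLR3, rose from 9.20 ± 0.872 to 18.6 ± 1.004 CPM. With teriflunomide edgeR called 0 of 11, with 3 at an unadjusted p under 0.05 and 0 called by DESeq2; without teriflunomide replicate 3 edgeR called 1. Among the genes that restrain the pathway, 7 of 8 were tested and 3 rose and 2 fell with lurbinectedin, close to the 71.6% of all genes called, led by SOCS1, an inhibitor of JAK kinases, from 0.950 ± 0.383 to 8.45 ± 1.02 CPM (log2 fold change 3.16), and PIAS1 (-2.07). With teriflunomide edgeR called 0 of these 7, with 2 at an unadjusted p under 0.05 and 1 called by DESeq2.

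Of 52 other interferon-stimulated genes, 39 were tested. With lurbinectedin 10 rose and 19 fell, beside 36% and 35.7% of all genes, with a list median of -0.57. With the combination 10 rose and 18 fell, beside 34.1% and 34.4%, with a median of -0.40. IRF1, a transcription factor, rose from 3.54 ± 0.859 to 42.8 ± 3.64 CPM (log2 fold change 3.59, SE 0.179, edgeR adjusted p = 8.23e-10). TAP1, the peptide transporter of antigen presentation, rose from 14.5 ± 0.199 to 96.8 ± 5.67 CPM, and ISG20, an RNA exonuclease gene, from 0.245 ± 0.0498 to 3.24 ± 0.787 CPM, whereas the helicase gene DDX60L fell from 8.77 ± 0.611 to 1.91 ± 0.0188 CPM. With teriflunomide 6 of the 39 rose and 0 fell, beside 3.88% and 2.13% of all genes, with a median of 0.38. TRIM22, an antiviral ubiquitin ligase gene, rose from 2.698 ± 0.343 to 6.998 ± 2.18 CPM, by 1.37 on the log2 scale (SE 0.217, edgeR adjusted p = 0.00351). The genes HERC6, SP110 and DDX60L rose by log2 fold changes of 1.21, 0.73 and 0.67. The count of 6 was 10 without both libraries of high mitochondrial share and 0 with only the 6 libraries compared in the fit. It was 2, 2 and 1 on leaving out control replicate 1, 2 or 3. On leaving out teriflunomide replicate 1, 2 or 3 it was 9, 5 and 6. The share of all genes called in each alternative is not given beside these counts. They therefore do not show a change particular to this list.

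**Figure D5:**
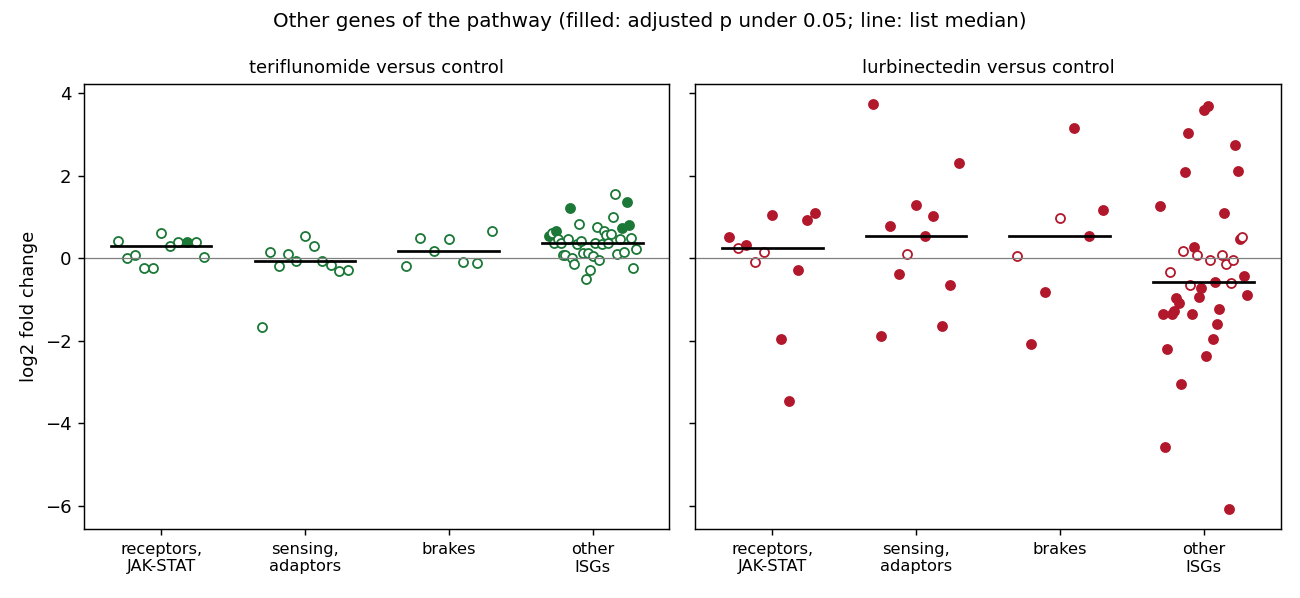
Log2 fold change against control of the tested genes of 4 pathway lists, with teriflunomide (left) and lurbinectedin (right); each point is a gene, filled where the adjusted p was under 0.05, and the line is the list median. Teriflunomide values lie between -1.67 and 1.57, with 6 filled points in the last list, and lurbinectedin values spread more widely to both sides, with a median of -0.57 in the last list.

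Markers of other cell types were summed per library as a check of the cultures. Leukocyte markers, 8 in all, summed to 0.0669 to 0.302 CPM in control, 0.0293 to 0.240 under teriflunomide, 1.79 to 2.89 under lurbinectedin and 1.95 to 2.61 under both drugs. Most of this was CD14, the only one of the 8 that was tested, from 0.110 ± 0.137 to 1.86 ± 0.476 CPM with lurbinectedin; CD3E and MS4A1 had 0 counts and PTPRC, the pan-leukocyte marker, 0 to 3 per library. The 6 fibroblast markers summed to 520 to 550 CPM in control, nearly all COL1A1 and COL1A2, to 466 to 485 with teriflunomide, 187 to 221 under lurbinectedin and 198 to 227 under both drugs, with LUM at 0. The 4 endothelial markers stayed under 0.629 CPM in sum. The part of these markers in the values of the 9 genes was not tested.

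Gene span moved with the lurbinectedin response over all genes, and is given beside the 8 tested genes for that reason. In 5 bins of equal gene number, from the shortest genomic span to the longest, the median log2 fold change of nuclear genes with lurbinectedin was 0.69, 0.62, 0.28, -0.36 and -1.86. IRF7 is in the shortest bin, and its 4.42 lay above that median. ISG15, IFI6, IFIT1 and IRF9 are in the second bin, where ISG15 and IFI6 lay above its median and IFIT1 (-0.94) and IRF9 (0.37) below. IFIT2 (0.50) is in the third, and IFIT3 (0.37) and IFIH1 (-0.44) in the fourth, where IFIT3 lay above and IFIH1 below the median. Span here runs from the first to the last exon base given with the counts, and need not be that of the transcripts expressed. For ISG15 it runs from 1001138 to 1014540, whereas the RefSeq promoter window above ends at 1013496. The bin of ISG15 therefore depends on the transcripts taken. The part of span in the individual values was not tested.

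The genes most like 7 of the 8 in pattern over the 12 libraries were found by Pearson's r of log2 CPM, as a description with no test. The libraries fall into 6 with and 6 without lurbinectedin, and all points share these libraries, so r is given within each set of 6. ISG15 was most like SOCS3 (r = 0.99 without and 0.95 with lurbinectedin), a cytokine signalling inhibitor gene. IFIT2 was most like TSPYL2 (0.99 and 0.98). Single libraries weigh heavily in these r values. Among libraries without lurbinectedin, teriflunomide replicate 3 had 1.47 CPM of ISG15 against 3.77 to 4.39 in the rest. It had 151 CPM of IFIT2 against 103 to 114. Among libraries given lurbinectedin, combination replicate 2 had 181 CPM of IFIT2 against 141 to 149. No r was computed without these libraries. IFI6 was most like USP11 (0.95 and 0.84), IRF7 most like RASD1 (0.94 and 0.65), IFIT1 most like BUB1 (0.97 and 0.61) and IRF9 most like GRK4 (0.75 and 0.83). For IFIT3 the likeness to CIDEB held without lurbinectedin (0.99) and was inverse with it (-0.92).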

How the data were processed

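Raw read counts per gene were deposited by the authors, 1 table per library in the layout of featureCounts. Per the submitters' processing notes, fastp 0.23.2, STAR 2.7.9 and featureCounts of Subread were used on hg38; strand use and multi-mapping are not given in the sources used here. Per the labels' protocols, the kit selects mRNA. Treatment labels gave 3 libraries to each of 4 groups. Symbols were matched for 60463 of 60649 identifiers. Genes were filtered by filterByExpr, scaled by TMM and tested with edgeR 4.0.16 in R 4.3.3 (robust quasi-likelihood, 1 mean per group, all 12 libraries, 6 contrasts, Benjamini-Hochberg over 16683 genes); the biological coefficient of variation was 14.5%. The script was tested on simulated data. Standard errors come from the F statistic, and 95% intervals use 8 residual degrees of freedom. The edgeR test draws on more degrees of freedom, so these intervals are wider than its p-values imply. For IFI6 with teriflunomide the interval ran from -0.01 to 1.09 beside an unadjusted edgeR p of 0.0406. Alternatives were other scaling, no filter, a replicate block, DESeq2 1.42.0, a threshold of 0.01, only the groups compared, and libraries left out. Promoters were searched on both strands. All 9 members were named. From each pathway list, at most 4 called genes of smallest adjusted p per comparison with control were named. IFIT5 was added as a further IFIT gene. The members and lists were chosen with earlier results of these data known. A few genes named by this rule are left out of the text.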

Additional observations from a re-analysis of the deposited data

How the results depend on the processing

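The number of the 8 genes called against control was 1 with teriflunomide under every alternative but 2: it was 2 without teriflunomide replicate 3 and 2 without both libraries of high mitochondrial share (leave-one-out range 1 to 2). With lurbinectedin it ranged from 5 to 7 and with the combination from 4 to 7 (leave-one-out 5 to 7 and 4 to 6). For the combination against lurbinectedin it was 0, and 1 without both of those libraries (leave-one-out 0 to 0). For the combination against teriflunomide it was 8, but 5 with DESeq2, 5 at an adjusted p under 0.01 and 4 with only the groups compared (leave-one-out 6 to 7). For the interaction it was 0, but 1 with DESeq2 and 2 without both libraries (leave-one-out 0 to 2). The share of all genes called can also differ between alternatives and is not given beside these counts. A moved count is therefore not a result particular to the 8 genes. Of 760 single-gene alternatives, 676 kept direction and side of the threshold, 52 lost a call, 17 gained one and 15 changed sign, of which 0 had been called. The calls of IRF7, IFI6, IFIT1 and IFIT2 with lurbinectedin and with the combination, of ISG15 with lurbinectedin and of IFIT3 with teriflunomide held in all 15 alternatives each. The causes of these changes were not tested.

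Values that changed sign when 1 library was left out had these leave-one-out ranges: with teriflunomide, ISG15 -0.60 to 0.0080, IFIT1 -0.20 to 0.020 and IRF9 -0.0085 to 0.21; with the combination, IFIH1 -0.33 to 0.013; for the combination against lurbinectedin, IFIT2 -0.031 to 0.16; in the interaction, ISG15 -0.56 to 0.036 and IFIH1 -0.28 to 0.16. Without both libraries of high mitochondrial share, ISG15 with teriflunomide was 0.0093, IFIT2 for the combination against lurbinectedin -0.031 and IFIH1 in the interaction 0.058. With library size as the only scaling, IRF9 with teriflunomide was -0.016 and IFIH1 in the interaction 0.076. Library size as the only scaling moved the median of all genes with lurbinectedin from 0.05 to -0.18 and with the combination from 0.04 to -0.13. Leaving out both libraries, and leaving mitochondrial genes out before scaling, were chosen after seeing the data.

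Replicate numbers did not pair the libraries: over 18 same-numbered pairs the correlation of deviations ran from -0.40 to 0.14, 1 was over 0.1, and of 12 libraries 2 had their single highest correlation, and 0 their highest mean correlation, with their own number. With the replicate block, 1, 6, 5, 0, 6 and 0 genes were called in the 6 contrasts in the order above, against 1, 6, 6, 0, 8 and 0 without it. Low counts limit RIGI, IRF7 and IRF9, and 3 libraries a group limit all tests.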
